A study of Mus musculus with 6 samples.

Results

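The cytosolic ribosomal protein genes encode the protein part of the cytosolic ribosome, and their chromatin accessibility was described here in 2 tissues of the early mouse heart region. Membership was set by gene name alone, though the genes were chosen with earlier results of these data known. Protein-coding genes were taken whose symbol begins with Rpl or Rps followed by a digit, with *Rpsa* and the symbols of Rplp followed by a digit, and with pseudogene symbols and the Rps6k kinases left out. This gave 89 of the 21631 protein-coding genes on the 19 autosomes and X. Of these, 43 were large-subunit genes, 31 small-subunit genes and 3 genes of the large-subunit stalk (*Rplp0*, *Rplp1* and *Rplp2*), called the 77 core genes below. A further 10 were paralogs marked by the suffixes l, l1, al or rt. The remaining 2, *Rps19bp1*, which encodes a binding partner of Rps19, and *Rps23rg1*, a retrogene, met the name rule but are not counted as core genes.

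A ribosome reads messenger RNA on its small subunit and joins amino acids on its large subunit, and the acidic stalk of the large subunit recruits the translation factors. Every dividing cell needs the core proteins in nearly equal amounts, so their genes are classed as housekeeping genes. Their promoters are short, usually lack a TATA box, and often start transcription at a C within a run of pyrimidines, the base of the 5′ terminal oligopyrimidine tract through which growth signals control translation of these messages. Several paralogs are known instead from restricted tissues: *Rpl3l* is a gene of heart and skeletal muscle, and *Rpl10l* and *Rpl39l* are genes of the male germ line.

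The samples were wild-type CD1 mouse embryos at embryonic day 10, without a transgene or treatment. The posterior second heart field (pSHF), a progenitor field behind the heart, and the atria (labelled HT) were cut out by hand, and embryos were pooled before transposition. Each tissue had 3 samples profiled by ATAC-seq, in which Tn5 transposase tags open DNA, and 1 peak list per tissue was analysed here. Each value below is therefore 1 value of the authors' list for that tissue, with no replicate error and no test between tissues.

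The promoters that carry the motifs described below, or that belong to genes named below for their peaks, were read from the RefSeq promoter table of GRCm38.p6, which held 69 of the 89 genes. Each stretch runs 5′ to 3′ on the strand of the gene, from 100 bases before the annotated start to 20 bases from the start on. Capitals mark a match to a searched motif. The first set shows core genes with differing promoters: *Rps19* (chr7:24884492-24884611, plus strand), *Rps6* (chr4:86857348-86857467, minus strand), *Rps28* (chr17:33824543-33824662, minus strand), *Rpl15* (chr14:18270967-18271086, minus strand) and *Rplp0* (chr5:115559367-115559486, plus strand). *Rps19* and *Rps6* encode proteins of the small subunit that are known from Diamond-Blackfan anaemia and from growth-factor-dependent phosphorylation, respectively.
Rps19: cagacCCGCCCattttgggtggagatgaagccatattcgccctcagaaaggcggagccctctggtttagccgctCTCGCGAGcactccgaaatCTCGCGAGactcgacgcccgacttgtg
Rps6: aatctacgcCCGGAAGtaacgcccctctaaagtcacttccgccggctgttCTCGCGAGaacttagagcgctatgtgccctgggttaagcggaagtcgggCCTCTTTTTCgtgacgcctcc
Rps28: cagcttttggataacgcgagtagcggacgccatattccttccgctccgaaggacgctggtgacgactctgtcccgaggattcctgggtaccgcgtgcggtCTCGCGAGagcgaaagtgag
Rpl15: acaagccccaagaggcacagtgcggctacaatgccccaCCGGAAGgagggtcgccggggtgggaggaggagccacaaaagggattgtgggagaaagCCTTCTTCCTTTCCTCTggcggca
Rplp0: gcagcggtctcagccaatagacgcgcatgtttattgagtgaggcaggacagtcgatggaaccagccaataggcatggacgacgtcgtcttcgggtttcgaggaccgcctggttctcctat
The capitals in *Rps19*, *Rps6* and *Rps28* hold the palindrome CTCGCGAG, *Rps19* also holds a GC-box match, those in *Rps6* and *Rpl15* also hold the ETS letters CCGGAAG and a pyrimidine run at the start, and *Rplp0* held none of the searched motifs in this stretch.

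The second set shows the gene with the strongest peak and the genes whose counting interval left out the general ratio between the lists. Such calls were no more frequent at ribosomal protein genes than at gene ends in general. The genes are *Rpl22l1* (chr3:28805408-28805527, plus strand), *Rpl36al* (chr12:69184048-69184167, minus strand) and *Rps25* (chr9:44407614-44407733, plus strand).
Rpl22l1: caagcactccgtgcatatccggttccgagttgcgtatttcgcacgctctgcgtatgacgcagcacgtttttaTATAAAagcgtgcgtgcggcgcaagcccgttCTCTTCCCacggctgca
Rpl36al: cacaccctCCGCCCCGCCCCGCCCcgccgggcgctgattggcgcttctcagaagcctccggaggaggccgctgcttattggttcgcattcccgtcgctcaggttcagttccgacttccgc
Rps25: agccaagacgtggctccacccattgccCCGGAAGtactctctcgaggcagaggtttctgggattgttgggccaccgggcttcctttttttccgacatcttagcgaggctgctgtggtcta
The capitals are a TATA match and a pyrimidine run in *Rpl22l1*, adjoining GC-box letters in *Rpl36al* and an ETS match in *Rps25*.

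The third set shows paralogs that had no peak at an annotated start: *Rpl3l* (chr17:24727726-24727845, plus strand), *Rpl10l* (chr12:66284382-66284501, minus strand) and *Rpl39l* (chr16:10170128-10170247, plus strand).
Rpl3l: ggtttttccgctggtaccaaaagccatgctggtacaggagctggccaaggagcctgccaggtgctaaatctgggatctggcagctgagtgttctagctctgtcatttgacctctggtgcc
Rpl10l: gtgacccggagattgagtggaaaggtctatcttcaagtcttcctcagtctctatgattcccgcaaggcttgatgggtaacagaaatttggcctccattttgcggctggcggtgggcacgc
Rpl39l: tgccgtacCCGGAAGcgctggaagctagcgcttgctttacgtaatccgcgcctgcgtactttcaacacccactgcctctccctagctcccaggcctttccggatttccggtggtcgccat
*Rpl3l* and *Rpl10l* held no searched motif here, and *Rpl39l* held 1 ETS match.

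Nearly all core genes had a peak in both tissues, and 6 of the 8 genes with none in either list were paralogs. A peak counted for a gene when its summit lay within 1 kb of either end of the gene. Such a gene-end peak stood in both lists at 80 of the 89 genes (89.9%, exact 95% interval 81.7 to 95.3), against a background of 55.9% of all protein-coding genes. In the pSHF list alone the count was 80 (background 58.5%), and in the HT list 81 (background 59.2%). Among the core genes, 74 of 77 had a peak in both lists (96.1%), with 41 of 43 in the large subunit, 30 of 31 in the small subunit and 3 of 3 in the stalk. Among the paralogs it was 4 of 10, and the interval of that share, 12.2% to 73.8%, lay below that of the core genes, 89.0% to 99.2%. The intervals cover counting error over genes only. A gene without a peak is one with no summit past the threshold of the list, which is not the same as closed chromatin.

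The 9 genes without a gene-end peak in both lists were *Rpl37rt*, *Rps27l*, *Rps27rt*, *Rpl32l*, *Rpl10l*, *Rpl39l*, *Rps2* and *Rpl17*, which had none in either list, and *Rpl22*, which had one only in the HT list. For the core genes in this group, *Rps2*, *Rpl17* and *Rpl22*, both lists held a peak inside the gene instead. Strength is given as fold enrichment, the authors' ratio at the summit, which equals the pileup (the reads stacked there) plus 1 over the caller's local background plus 1. *Rps2*, which encodes a protein near the messenger entry of the small subunit, had an internal peak of fold enrichment 6.47 in pSHF and 8.59 in HT, 3 and 35 bp from a start in the promoter table. *Rpl22*, whose product is also an RNA-binding protein of lymphocyte development, had internal peaks of 7.88 and 12.6, at 24 and 47 bp from a listed start. Its HT-only peak was weaker, at 5.63. *Rpl17* had internal peaks of 8.33 and 7.62, and it was not matched in the promoter table. The paralog *Rps27l*, a p53 target, had 8.35 and 12.4 at 45 and 96 bp from a listed start.

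When a summit anywhere inside the gene or within 1 kb was counted, all 77 core genes and 84 of the 89 genes had peaks in both lists, against a background of 66.9%. Around listed starts alone, 57 of 57 core genes and 63 of 69 genes had peaks in both lists, against a background of 59.3%. These counts were added after the peaks had been seen. The 5 genes that had no peak by the inside count were all paralogs. *Rpl10l* stood farthest from any peak, with the nearest summit 91733 bp away in pSHF and 280803 bp away in HT. *Rpl32l* was 30911 and 37776 bp away, *Rpl39l* 18006 and 17975 bp, *Rpl37rt* 9126 and 9074 bp, and *Rps27rt* 3532 and 3404 bp. *Rpl3l* did have a gene-end pair, of fold 9.33 and 16.7, but this lay past its far end, at *Msrb1*, and no peak stood at its own listed start in either tissue. The paralogs with a peak at their own start in both lists were *Rpl22l1*, *Rpl36al*, *Rpl7l1* and *Rps27l*.

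Ribosomal protein peaks had a higher median fold enrichment than gene-end peaks in general in both tissues. This was not particular to them, and values for other genes of translation are given below. In pSHF the 110 peaks had a median fold enrichment of 7.49 (quartiles 5.43 and 9.17), against 6.21 (4.47 and 8.44) for all 15542 gene-end peaks. In HT the 92 peaks had a median of 10.4 (7.68 and 12.2), against 8.0 (5.04 and 11.2) for all 14431. The upper quartile of all gene-end peaks was exceeded in fold by 47 of 110 peaks in pSHF (42.7%) and by 34 of 92 in HT (37.0%). The summit pileup had a median of 25 in pSHF and 35.5 in HT, against 19 and 26 for all gene-end peaks. In bulk tissue, fewer open cells and a lower signal per cell cannot be told apart.

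The range within the ribosomal protein genes was wide. The strongest by the mean of both lists was *Rpl22l1*, a paralog of *Rpl22*, with 11.7 in pSHF and 18.4 in HT (mm10 chr3:28805201-28805641 in the pSHF list). *Rplp0*, the base of the stalk, followed with 12.6 and 15.7. *Rpl27* had 12.4 and 14.1, *Rpl15* 11.6 and 14.8, and *Rpl34* 10.9 and 15.2, all large-subunit genes. The weakest was *Rpl19* with 3.89 and 4.88, from a pair that also lay at an end of *Cacnb1*. A second pair at the listed start of *Rpl19*, 4707 bp inside the gene bound, had 6.07 and 5.29, so that the direction between tissues at *Rpl19* depended on the pair used. *Rpl38*, a gene known for the translation of Hox messages in the mouse embryo, had 4.86 and 5.89. *Rps18* had 5.81 in pSHF and 5.44 in HT, from peaks at opposite ends of the gene. *Rpl8* had 4.57 and 7.02, and *Rpl7* 5.45 and 6.18. The weakest 5 were thus all below the median of all gene-end genes in both lists, which was 7.48 in pSHF and 9.47 in HT. The order of genes in 1 list was loosely kept in the other, with a Spearman correlation of 0.74 over 88 pairs of overlapping peaks, against 0.82 over all 11844 gene-end pairs. Both lists share the genome sequence and the background model.

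**Figure D1:**
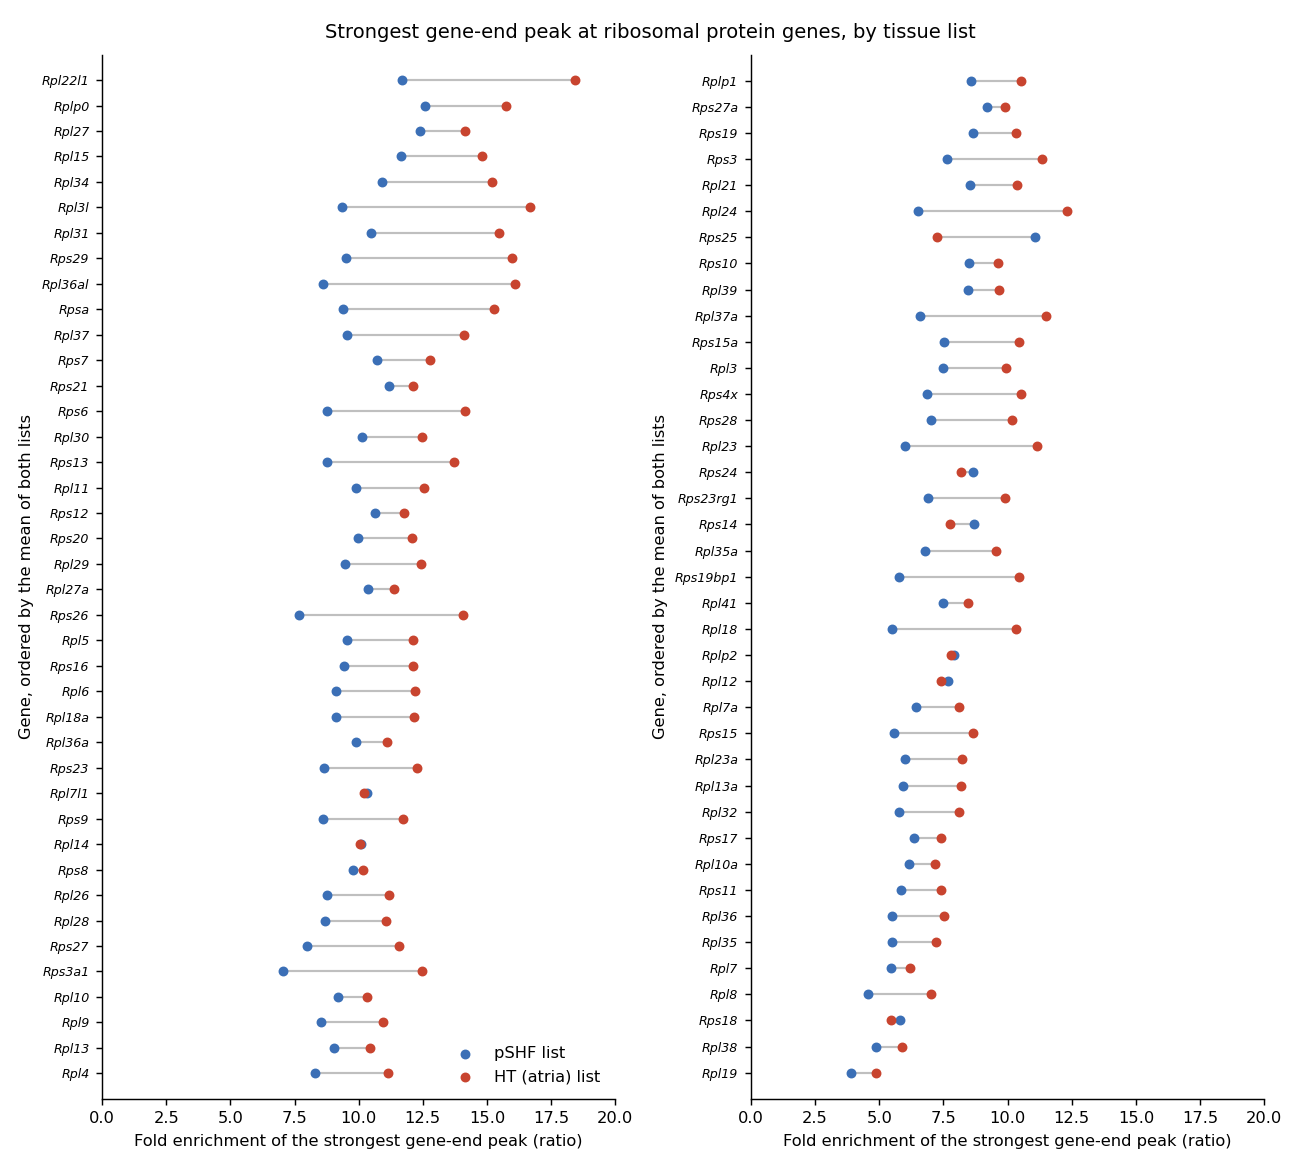
Fold enrichment (ratio) of the strongest gene-end peak in the pSHF list (blue) and the HT list (red) for ribosomal protein genes with a peak in both, 1 row per gene, ordered by the mean and split over a left and a right panel. *Rpl22l1* reached 18.4 in HT and *Rpl19* stood lowest at 3.89 in pSHF. The values of a row can come from different peaks, as at *Rps18*, where they lay at opposite ends of the gene.

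Genes of known role lay between these ends. *Rpsa*, whose product is a small-subunit protein also known as the laminin receptor, had 9.39 in pSHF and 15.3 in HT. *Rps19*, the most often mutated Diamond-Blackfan gene, had 8.66 and 10.3, and *Rps6* had 8.75 and 14.1. *Rpl5* and *Rpl11*, whose proteins bind Mdm2, had 9.54 and 12.1, and 9.90 and 12.5. All 5 were higher in HT, as most gene-end pairs were. Of the 13 Diamond-Blackfan genes, 13 had peaks in both lists, with medians of 8.66 and 11.2. *Rpl3*, of the peptidyl transferase centre, had 7.48 and 9.94. *Rps27*, the parent of *Rps27l*, had 7.98 and 11.6. *Rplp1* had 8.57 and 10.5, while *Rplp2* had 7.91 and 7.79. The 4 X-linked genes, *Rpl10*, *Rpl36a*, *Rpl39* and *Rps4x*, had 9.18 and 10.3, 9.88 and 11.1, 8.45 and 9.66, and 6.87 and 10.5. Their medians, 8.81 and 10.4, lay near those of all ribosomal protein genes with a peak, 8.60 and 10.5. Genes that hold a small nucleolar RNA gene, 30 of the 89, had medians of 8.64 and 11.1, against 8.60 and 10.5 for the other 59.

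Peaks at these genes were more often present in both lists than gene-end peaks in general. In pSHF 105 of 110 peaks overlapped an HT peak by at least 1 bp (95.5%, interval 89.7 to 98.5), against a background of 88.7%. In HT 88 of 92 overlapped a pSHF peak (95.7%, interval 89.2 to 98.8), against a background of 86.1%. Those without an HT counterpart included peaks at *Rpl15* (fold 3.81), *Rpl23a* (4.21), *Rps19* (3.26) and *Rps6* (4.34), each beside a stronger shared peak of the same gene. The 4 without a pSHF counterpart lay at *Rpl21* (3.42), *Rpl22* (5.63), *Rpl35* (3.41) and *Rps15a* (6.47). With at least 50% reciprocal overlap the shares were 72.7% in pSHF and 87.0% in HT, against 65.7% and 70.7% for all gene-end peaks.

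Fold enrichment was higher in HT at most of these genes, by about as much as at gene ends in general. Over the 88 pairs, the median log2 ratio of HT to pSHF fold enrichment was 0.35 (quartiles 0.18 and 0.54, interval of the median 0.30 to 0.45), against 0.32 over all gene-end pairs. The median ratios were 1.28 and 1.25. HT was higher in 77 pairs and pSHF in 11, so 87.5% were higher in HT, against 81.5% of all gene-end pairs. By subunit, the median over genes was 0.35 in the large subunit, 0.35 in the small subunit and 0.30 in the stalk. The 4 paired paralogs had 0.75, with *Rpl3l* among them, whose pair lay past its far end. The 4 paralogs with a peak at their own start in both lists had 0.61. The ratio spread less than in all pairs, with an SD over pairs of 0.29 against 0.36. Summit pileups of ribosomal protein peaks were also higher, with medians of 25 in pSHF and 35.5 in HT against 19 and 26. The part of read depth in the spread and in the share higher in HT was not tested.

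**Figure D2:**
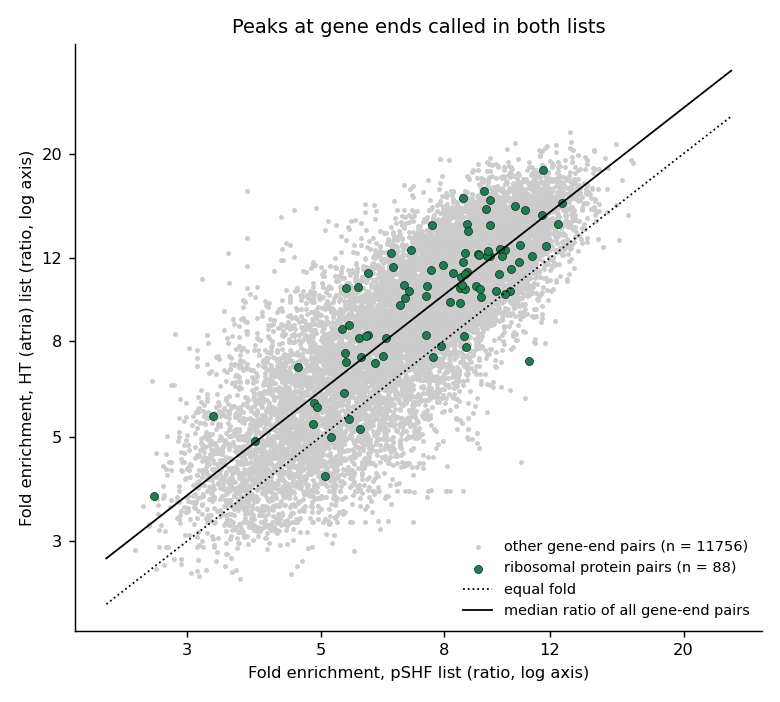
Fold enrichment of gene-end pairs in pSHF (horizontal) against HT (vertical), both on log axes, with ribosomal protein pairs (green) over the other gene-end pairs (grey). Of the 88 ribosomal protein pairs, 77 lay above the dotted line of equal fold and 11 below it, and the solid line is the median ratio of all gene-end pairs, 1.25.

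The largest ratios toward HT were at *Rpl24*, with 6.53 in pSHF and 12.3 in HT (log2 ratio 0.92), *Rpl18*, with 5.50 and 10.3 (0.91), *Rpl36al*, with 8.61 and 16.1 (0.90), *Rpl23*, with 5.98 and 11.1 (0.90), and *Rps26*, with 7.66 and 14.1 (0.88). The *Rpl18* pair lay at the outer bound of the gene. A second pair at its listed start, 2604 bp inside that bound, had 3.52 and 6.97 (0.98). *Rpl24* encodes a protein of the bridge between the subunits, and *Rps26* one at the messenger exit. Toward pSHF the largest was *Rps25*, needed for initiation at certain internal ribosome entry sites, with 11.1 in pSHF and 7.23 in HT (log2 ratio −0.61). The next were close to equal. *Rps14* had 8.69 and 7.74 (−0.17), *Rps18* 5.81 and 5.20 in its pair (−0.16), *Rps24* 8.65 and 8.20 (−0.08), and *Rpl12* 7.66 and 7.39 (−0.05). By summit pileup *Rps24* was higher in HT, with 25 reads in pSHF and 31 in HT (ratio 1.24), and so its direction turned with the measure. Of the 80 genes with a pair, 72 were higher in HT and 8 in pSHF by fold enrichment. Of these 8, *Rplp2* and *Rpl14* were also higher in HT by pileup, with ratios of 1.09 and 1.56.

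To set these ratios against counting error, the whole-number pileup at each summit was used, and a pair was called when the exact 95% interval of its HT share left out the median share of all gene-end pairs. Calls were made at 2 of 88 pairs (2.27%), against a background of 3.93% (2.13% toward pSHF and 1.81% toward HT). The share was not above the background, so neither call sets its gene apart from gene ends in general. *Rpl36al*, a copy of the X-linked *Rpl36a*, was called toward HT, with 32 reads at the pSHF summit and 72 at the HT summit, a ratio of 2.25 (1.46 to 3.53). Its paired peak was 445 bp wide in pSHF and 1053 bp in HT, and it also lay at an end of *Mgat2*. A second pSHF peak of 155 bp overlapped the same HT peak, so these widths do not compare the whole region. *Rps25* was called toward pSHF, with 38 reads in pSHF and 26 in HT, a ratio of 0.684 (0.399 to 1.16). That interval includes equal pileups, and the call is against the median pileup ratio of 1.33 of all gene-end pairs. Its paired peak was 547 bp wide in pSHF and 957 bp in HT, the strongest summits lay 273 bp apart, and it also lay at an end of *Trappc4*. Here too a second pSHF peak, of 242 bp, overlapped the same HT peak. Without peaks that also lay near another gene, neither pair was counted and 0 calls were left. When every summit line was used in place of 1 summit per peak, 6 of 107 pairs were called (5.61%), against 4.81% of all gene-end pairs under that setting. The interval counts reads at 1 summit and covers no spread between embryos.

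**Figure D3:**
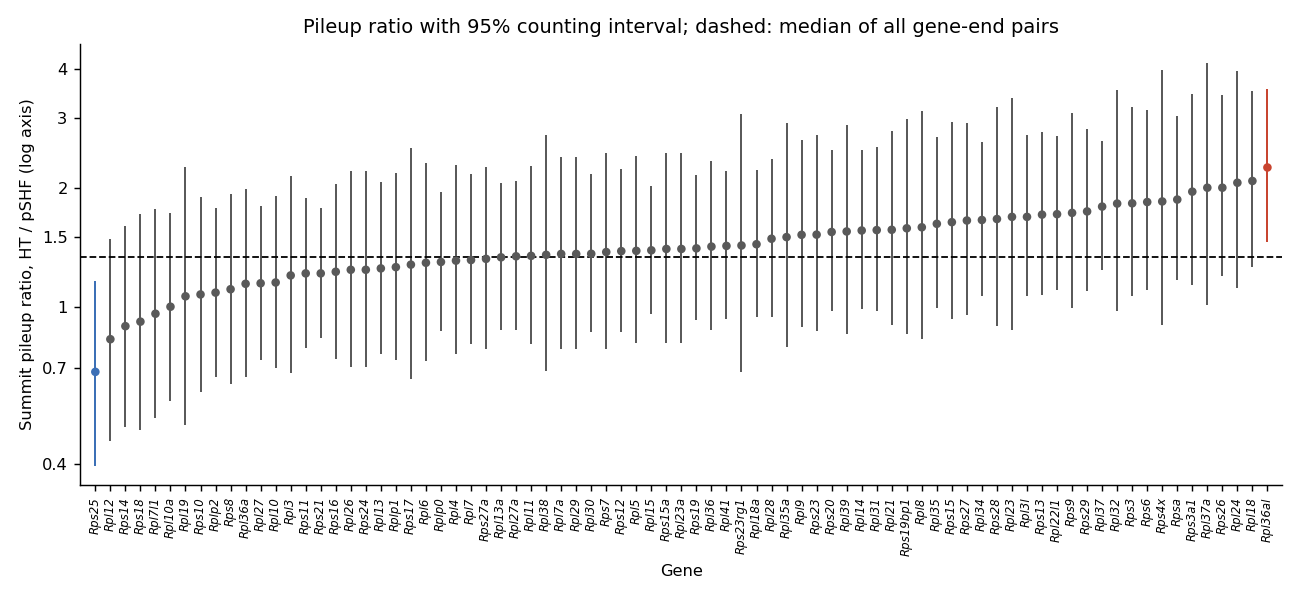
Ratio of HT to pSHF summit pileup (log axis) for paired ribosomal protein genes, in order, with bars for the 95% counting interval and a dashed line at the median of all gene-end pairs, 1.33. The bar of *Rps25* (0.684, blue) lay below the line and that of *Rpl36al* (2.25, red) above it, and the bars of the other genes shown crossed it.

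Over all peaks, median widths were near those of gene-end peaks in general in pSHF and somewhat larger in HT. This depended on the peaks counted. By the strongest peak per gene, the medians were 503 bp in pSHF and 546 bp in HT, against 564 and 562 bp for all genes with a peak. With −log10 q of at least 5 they were 481 and 535 bp, against 564 and 556 bp. The median width was 436 bp in pSHF (quartiles 304 and 578) against 424 bp for all, and 522 bp in HT (418 and 650) against 470 bp. In pSHF 14 of 110 peaks (12.7%) and in HT 19 of 92 (20.7%, near the share that a quartile sets) exceeded the upper quartile of all gene-end peaks, which was 665 bp in pSHF and 688 bp in HT. The widest by the mean of both lists were *Rpl7* with 1298 bp in pSHF and 844 bp in HT, *Rpl30* with 1023 and 848 bp, *Rps27a* with 1013 and 776 bp, *Rps19* with 906 and 801 bp, and *Rpl37* with 830 and 808 bp. The *Rpl7* peak was thus both the widest and among the weakest, and it also lay at an end of *Rdh10*, with its pSHF summit 561 bp past the end of *Rpl7*. Without peaks near another gene, the log2 ratio at *Rpl7* was 0.50 in place of 0.18. *Rps27a* encodes a fusion of the ribosomal protein with ubiquitin. Of the 88 pairs, 48 were wider in HT and 40 in pSHF. Width was less alike between lists than for other genes, with a Spearman correlation of 0.49 against 0.76 over all pairs. In HT, 10 of 81 genes with a peak (12.3%) had more than 1 gene-end peak, against 25% of all such genes, while in pSHF it was 29 of 80 (36.3%) against 34.0%.

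Summits lay just upstream of the annotated start. Strand was known for 60 genes with a start-side peak in each list. The median position of the strongest start-side summit was −29.5 bp in pSHF (quartiles −125 and 15) and −44 bp in HT (−82.8 and −6.75), against 3 and −9 bp for all protein-coding genes. The summit was upstream at 40 of 60 genes in pSHF and at 47 of 60 in HT. It lay within 150 bp of the start at 81.7% and 85.0% of the genes, against 63.2% and 67.5% of all genes. *Rpl4* was an exception, with its strongest pair, 8.30 and 11.1, at its far end, next to *Snapc5*. Its strongest pair near its listed start had 4.93 in pSHF and 5.78 in HT. The order of genes by strength above used the far-end pair. Of the 81 genes with a gene-end peak, 20 shared the strongest one with an end of another coding gene.

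**Figure D4:**
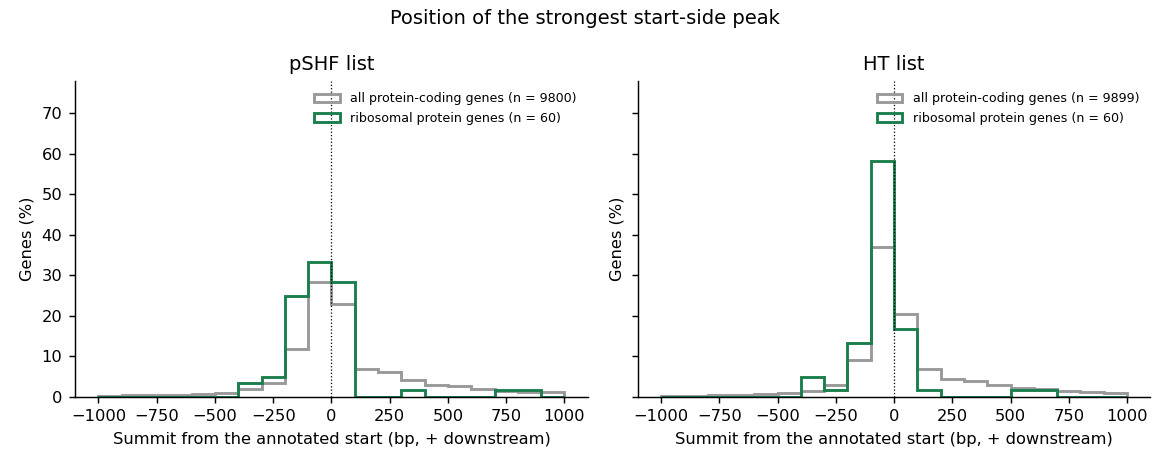
Distance of the strongest start-side summit from the annotated start (bp, positive downstream) in the pSHF and HT lists, as a percentage of genes in bins of equal width. Ribosomal protein genes gathered between −125 and 15 bp in pSHF at the quartiles, and the tail downstream of the start was thinner than for all protein-coding genes.

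Ribosomal protein promoters, taken over all that were listed, carried some short motifs more often than promoters in general. Motifs were searched from 250 bases before to 50 after the start, in 69 ribosomal protein promoters. Both strands were searched, except for the TATA letters and the pyrimidine run, which were searched on the strand of the gene. The ETS letters CCGGAAG were in 36.2% (interval 25 to 48.7), against 18.0% of the 9694 genes with a peak in both lists and 12.1% of all 17274 promoters. The element TCGCGAG was in 18.8% (10.4 to 30.1), against 4.24% and 2.78%. It lies inside the longer palindrome CTCGCGAG, which gives overlapping matches on both strands, as in the *Rps19*, *Rps6* and *Rps28* stretches printed above. All 13 promoters with it belonged to core genes, *Rps19*, *Rps6* and *Rps28* among them. A C with at least 4 pyrimidines after it, beginning within 5 bases of the start, was in 44.9% (32.9 to 57.4), against 19.8% and 19%. The YY1 letters AAGATGG were in 14.5%, against 7.06% and 6.40%. The NRF1 half-site letters TGCGCA were in 17.4%, against 15% and 10.1%, and the GC-box letters GGGCGG in 58.0%, against 67.4% and 46.9%. The TATA letters TATAAA, searched only from 60 to 15 bases before the start, were in *Rpl22l1* alone (1.45%), against 1.28% and 3.49%. A match describes letters and not a bound site.

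**Figure D5:**
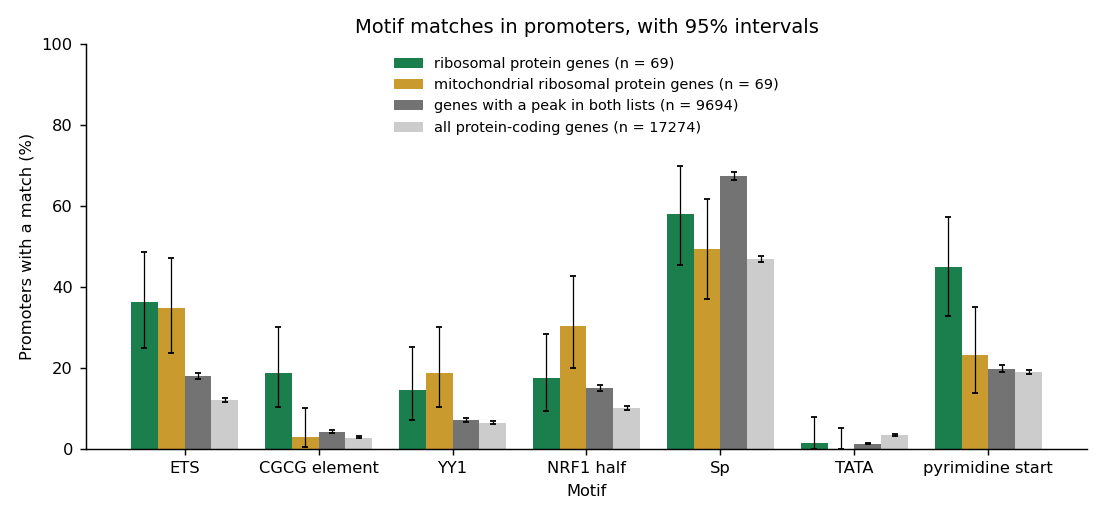
Percentage of promoters with a match to each motif in ribosomal protein genes, mitochondrial ribosomal protein genes, genes with a peak in both lists and all protein-coding genes, with exact 95% intervals. The CGCG element stood at 18.8% in ribosomal protein genes and at 2.90% in mitochondrial ribosomal protein genes.

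Median fold enrichment was lower in both lists with the TCGCGAG element, the YY1 letters or the pyrimidine start. It was slightly higher with the ETS letters, and no test was made. The 13 genes with the TCGCGAG element had median folds of 7.50 in pSHF and 10.5 in HT, against 8.67 and 11.1 for the 48 without it. The 9 with the YY1 letters had 7.66 and 10.5, against 8.66 and 11.1 for the 52 without. The 27 with the pyrimidine start had 8.45 and 10.3, against 8.75 and 11.3 for the 34 without. The 22 with the ETS letters had 8.75 and 11.7, against 8.60 and 11.1 for the 39 without. With the NRF1 half-site or GC-box letters, medians were higher in pSHF and lower in HT. The ratio of observed to expected CpG in these promoters had a median of 0.854, against 0.773 in genes with a peak in both lists and 0.586 in all promoters. *Rpl3l*, with no peak at its start, had 0.089.

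Most other genes of translation had peaks in both lists too. Peaks were in both lists at 29 of 29 initiation factors, 7 of 8 elongation factors (*Eef1a2*, of muscle and neurons, had none), 24 of 25 genes of ribosome biogenesis (*Ubtf* had none) and 73 of 78 mitochondrial ribosomal protein genes (93.6%). The median log2 ratio of HT to pSHF fold enrichment was 0.41 for mitochondrial ribosomal proteins, 0.46 for biogenesis genes, 0.31 for initiation factors and 0.37 for elongation factors, against 0.35 for the ribosomal protein genes. By the strongest peak per gene, initiation factors had median folds of 8.52 in pSHF and 10.8 in HT. Biogenesis genes had 8.34 and 11.1, mitochondrial ribosomal protein genes 7.78 and 10.8, and elongation factors 7.86 and 9.58. The ribosomal protein genes had 8.60 and 10.5, and all protein-coding genes with a gene-end peak 7.48 and 9.47. Mitochondrial ribosomal protein promoters held the ETS letters in 34.8%, close to the cytosolic ones, but the TCGCGAG element in 2.90% and the pyrimidine start in 23.2%. Peaks stood in both lists at 2 of 8 atrial marker genes (interval 3.19% to 65.1%) and at 5 of 8 pSHF marker genes (24.5% to 91.5%), and both intervals include the background of 55.9%. Among these, *Nppa* and *Myl7* had gene-end peaks only in HT, and *Foxf1* only in pSHF, in the direction of the labels, while *Gja5* had one only in pSHF and *Gli1* only in HT. The atrial markers *Sln*, *Myl4* and *Nkx2-5* and the pSHF marker *Hoxb1* had none in either list. Of the markers in both lists, atrial *Tnnt2* and pSHF *Wnt2*, *Aldh1a2*, *Ptch1* and *Isl1* were higher in HT. Atrial *Actn2* and pSHF *Osr1* were higher in pSHF.

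Ribosomal protein genes have many processed copies, and 324 pseudogenes with such symbols stood in the gene table. No label or header says how reads that fit several places were treated. The part of such reads in the peaks was not tested.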

How the data were processed

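ATAC-seq libraries came from 3 pSHF and 3 HT samples of wild-type CD1 embryos, and 1 deposited peak list per tissue was used. The submitters' processing notes name MACS2 2.1.1, Picard, Bowtie2 2.3.2 and SAMtools 1.5, with the build mm10. For these tools the role and the settings, and for the samples any pooling before peak calling, are not stated in the labels or files. Each deposited line gives a summit with the authors' score, fold enrichment as a ratio, −log10 p-value and −log10 q-value.

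Lines with equal start and end were merged and the summit of highest fold was kept, leaving 44018 pSHF and 49267 HT peaks. The pileup was recovered as the whole number that matches the deposited fold and Poisson p, which was found within 0.01 (log10) at 100% of summits. The median summit pileup was 13 reads in pSHF and 14 in HT, and the background 0.857 and 0.824, so both lists had similar coverage. Genes came from a RefSeq table of GRCm38.p6, and strand and promoters from its promoter table. Pairs were reciprocal best overlaps of at least 1 bp with both summits at gene ends. Intervals at 95% are exact (Clopper-Pearson) for shares and pileup ratios. They hold counting error only, since reads at a peak need not be independent molecules. The pair call was tested on simulated pileups. Python 3.11.15, pandas 2.3.3 and SciPy 1.17.1 were used.

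The genes named were those lacking a peak in a list, the 5 highest and 5 lowest by mean fold, the 5 largest ratios each way, the 5 widest, and members of known role, of which *Rps4l* was not matched. The genes and lists were chosen with earlier results of these data known. Alternatives were a q limit, other windows, overlap rules, every summit line, pileup in place of fold, leaving out paralogs or peaks near another gene, and a shorter promoter.

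A few items are not reported here and are left out of the plots by gene.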

Additional observations from a re-analysis of the deposited data

How the results depend on the processing

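No paired analysis was possible because each tissue had 1 peak list with no replicate values, and for the same reason no replicate could be left out. Of the summary values, 105 stayed within their spread and 14 moved. Of the genes named, *Rplp2* turned from −0.02 on the log2 scale to 0.02 with every summit line and 0.12 with pileup, *Rps24* from −0.08 to 0.31 with pileup, and *Rpl19* from 0.33 to −0.20 with peaks inside the gene or at any listed start. The called pairs at *Rpl36al* and *Rps25* did not turn under the settings that kept them. With 50% reciprocal overlap, the shares of ribosomal protein peaks present in the other list were 72.7% in pSHF and 87.0% in HT, and 1 pair was called in place of 2. With every summit line the median fold was 5.99 in pSHF and 7.74 in HT (5.68 and 6.55 for all gene-end summits), the median width 499.5 bp in pSHF, and 6 of 107 pairs were called (5.61%, against 4.81% of all), since weaker summits and broad peaks then count more than once. Without the paralogs and *Rps19bp1*, 1 pair was called and the TATA share was 0%, since *Rpl36al* and *Rpl22l1* were left out. Without peaks near another gene, 0 pairs were called. Pileup in place of fold gave medians of 25 reads in pSHF and 35.5 in HT and a median log2 ratio of 0.48, against 0.42 for all gene-end pairs. With 100 bases before the start, the GC-box share was 43.5%, in a shorter window. With pileups of this size, a ratio between lists below about the width of the printed intervals was not detectable.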
